A study of Mus musculus with 14 samples.

Results

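The libraries compared here were separated by a single transcript, Mobp, which encodes a structural protein of the compact myelin made by oligodendrocytes in brain and spinal cord. Of the 14 libraries of mouse tibia RNA, 2 read under 20 CPM for Mobp and 12 read over 100. The low libraries were OVX-HA replicate 2 (1.17 CPM) and OVX-PBS replicate 1 (4.83 CPM), and the lowest of the other 12 was OVX-ZA replicate 1 (156 CPM). CPM is the estimated count of a gene divided by the sum of all estimated counts of its library, times 1000000. The libraries were chosen by their measured Mobp level, so every difference between the 2 and the 12 is a description without a test.

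All mice were wild-type female C57Bl/6, operated on by sham surgery (sham, n = 3) or ovariectomy. Treatment of the ovariectomized mice started 2 to 4 days after surgery and went on for 8 weeks. It was zoledronic acid in OVX-ZA (n = 3), PBS in OVX-PBS (n = 3), 3'(3'hydroxyphenyl) propionic acid in OVX-PPA (n = 2) and hippuric acid in OVX-HA (n = 3). The sources used here give no age, dose or route, and the labels do not state that each library came from its own animal, so p-values measure spread between samples that may be technical. Library totals ran from 11.9 to 35.4 M estimated counts (M, units of 1000000), and the 2 low libraries held 34.2 M and 20.1 M, given here and throughout in the order OVX-HA replicate 2, OVX-PBS replicate 1. Bone transcripts were abundant in all 14 libraries. Col1a1, the main collagen chain of bone, ran from 754 to 3748 CPM in the 12 and read 4964 and 2722 in the 2 libraries. Tbx4, which encodes a hindlimb transcription factor, read 1.14 and 1.29 CPM, inside the range of 0.528 to 1.92 in the 12 (median 0.977), and Pitx1, another hindlimb factor, stayed under 1 CPM.

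Central and peripheral nerve tissue differ in their glia. In brain and spinal cord, oligodendrocytes wrap axons in myelin rich in Mobp and Mog, and astrocytes clear glutamate and GABA. In peripheral nerve and sensory ganglia, Schwann cells make myelin with Prx among its organising proteins, while Mbp and Mag are made on both sides. Slc6a5, the transporter that loads glycinergic neurons of spinal cord and brainstem with glycine, marks central tissue. The sensory neurons of limb nerve have their cell bodies in the dorsal root ganglia and are marked by Scn10a and Calca. Hox genes are expressed along the body axis in an order that follows their position in the gene clusters, and higher paralog numbers mark more caudal segments.

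Promoters of 4 genes are shown as examples of the transcripts that differ between the libraries: Mobp, which separated them, Slc6a5, another gene of the lower set, and Kel and Epor, red-cell genes of the higher set. The sequences are the 250 bases before the RefSeq transcription start, on the strand of the gene, from the GRCm38.p6 table. Capitals in Mobp and Slc6a5 mark ACAAAG on either strand, a core bound by SOX factors such as SOX10 of myelinating glia, and capitals in Kel and Epor mark AGATAA on either strand, a core bound by GATA factors such as GATA1 of red-cell precursors.
Mobp (chr9:120149492-120149741, + strand): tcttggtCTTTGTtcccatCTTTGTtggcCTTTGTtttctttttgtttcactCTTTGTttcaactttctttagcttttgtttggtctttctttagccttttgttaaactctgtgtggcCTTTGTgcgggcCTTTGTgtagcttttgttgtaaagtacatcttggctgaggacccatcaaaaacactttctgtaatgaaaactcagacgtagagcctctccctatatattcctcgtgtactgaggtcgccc
Slc6a5 (chr7:49910049-49910298, + strand): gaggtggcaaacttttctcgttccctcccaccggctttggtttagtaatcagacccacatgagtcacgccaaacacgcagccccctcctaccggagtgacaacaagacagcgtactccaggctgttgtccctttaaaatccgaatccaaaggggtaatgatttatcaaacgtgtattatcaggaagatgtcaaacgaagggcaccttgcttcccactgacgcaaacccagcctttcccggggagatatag
Kel (chr6:41704326-41704575, - strand): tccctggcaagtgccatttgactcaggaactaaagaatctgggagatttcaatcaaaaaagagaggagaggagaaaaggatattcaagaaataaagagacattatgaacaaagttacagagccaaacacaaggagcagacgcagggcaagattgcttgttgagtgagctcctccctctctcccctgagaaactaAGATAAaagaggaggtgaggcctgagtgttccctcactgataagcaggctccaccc
Epor (chr9:21963577-21963826, - strand): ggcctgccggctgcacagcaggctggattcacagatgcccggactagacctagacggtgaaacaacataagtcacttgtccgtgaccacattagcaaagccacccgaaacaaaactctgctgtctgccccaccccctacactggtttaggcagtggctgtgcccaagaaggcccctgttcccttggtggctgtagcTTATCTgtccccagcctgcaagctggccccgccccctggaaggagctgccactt
The Mobp window held 6 matches to ACAAAG or its reverse complement CTTTGT, and the printed Slc6a5 window held 0. Slc6a5 has 2 promoter entries, and only the first by position is printed. The shares below count a match in any entry of a gene. Kel and Epor held 1 match each to AGATAA or TTATCT. Promoters were in the table for 314 of the 417 lower genes, 49 of the 79 higher genes and 12148 of the 17482 genes at 1 CPM or more in either set of libraries. The SOX core was present in 16.9% of the lower genes with a promoter, 20.4% of the higher genes and 14.8% of all. The GATA core was present in 6.69%, 22.4% and 7.47%, in the same order. A match in such a window is a string of letters and not a measured binding site.

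The genes that were low together with Mobp were led by those of central glia and of spinal neurons. Lower genes were defined as those in which both libraries lay below all 12, the median of the 12 was at least 1 CPM and the log2 ratio was -2 or less. The ratio is the difference of mean log2(CPM + 0.5) between the 2 and the 12, a scale that understates differences of low genes. Of 17347 genes, 417 were lower (2.4%), with a median log2 ratio of -2.59. Of 16382 genes, 79 were higher by the mirrored rule with a log2 ratio of 1 or more (0.482%). Counts of lower and higher genes in the lists below stand against these shares of 2.4% and 0.482%. Without a limit of size, both libraries were below all 12 in 2948 of 17482 genes (16.9%) and above all 12 in 842 (4.82%). The median log2 ratio over these 17482 genes was -0.05, and 0.06 with TMM scaling, a shift of the whole scale that moved the split of 417 lower to 79 higher genes (84.1% lower) to 381 to 205 (65.0%), and to 391 to 143 (73.2%) with DESeq2 size factors.

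Levels by library show how far apart the sets were. Slc6a5 read 86.9, 77.7 and 33.1 CPM in sham, 47.1 and 54.4 in OVX-PBS replicates 2 and 3, 82.6 and 84.6 in OVX-HA replicates 1 and 3, 63.5 and 60.6 in OVX-PPA and 30.5, 68.5 and 64.5 in OVX-ZA. The 2 libraries low in Mobp read 0.497 and 0.149. Slc1a2, the main glutamate transporter of astrocytes, read 1.99 and 3.23 CPM in the 2 libraries and ran from 138 to 403 in the 12, with a median of 324. Slc32a1, which fills synaptic vesicles with GABA or glycine, read 0.117 and 0.149 against a median of 29.1. No library lay between the sets for these genes, and among the 12 the lowest values were those of OVX-ZA replicate 1 or sham replicate 3 for all 3.

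**Figure D1:**
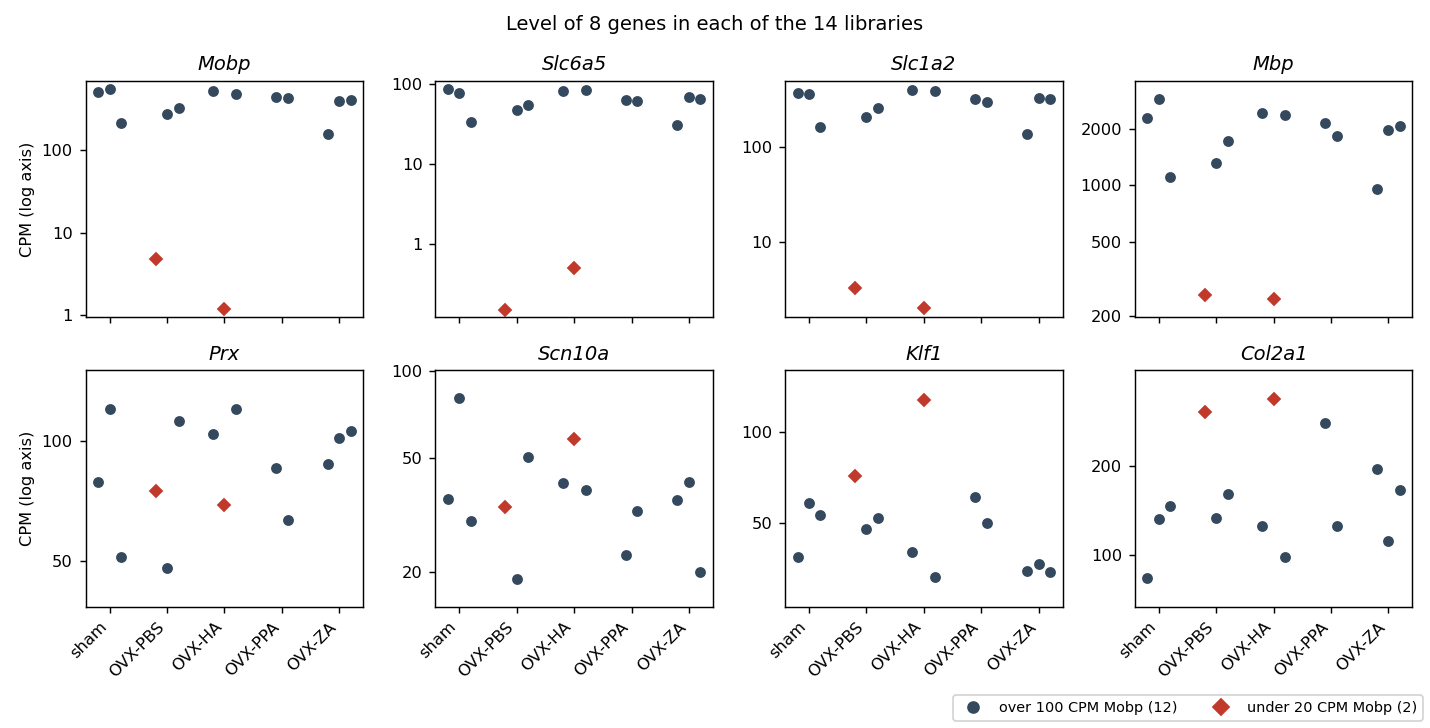
CPM on a log axis of 8 genes in each library, by group. Red diamonds are OVX-HA replicate 2 and OVX-PBS replicate 1, and dark points are the 12 libraries over 100 CPM Mobp. The diamonds lie far below all points for Mobp, Slc6a5, Slc1a2 and Mbp, among them for Prx and Scn10a, and above them for Klf1 and Col2a1.

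Oligodendrocyte genes were low throughout most of their list. Of 18 genes of central myelin, 13 were lower by the rule, with a median log2 ratio of -3.82, and 16 were below all 12 in both libraries. Mog, a protein of the outer myelin surface, read 0.117 and 0.299 CPM against 9.50 to 37.1 (median 26.5). Ermn, a cytoskeletal protein of mature oligodendrocytes, read 0.234 and 0.875 against a median of 54.5. Olig1 and Olig2, transcription factors of the lineage, read 0.204 and 0.431 (median of the 12 32.7), and 0 and 0.149 (median 8.47). Myrf, which switches on myelin genes, read 0.876 and 1.49 against a median of 32.1. The members that the rule left out were Aspa, Enpp6, Tspan2, Gjc3 and Prr5l, of which Aspa read 11.7 and 13.9 against 22.7. Precursor genes followed, with 4 of 7 lower: Neu4 had 0 counts in both libraries, where 3 counts would be 0.0876 and 0.149 CPM, and Tnr, Bcan and Pcdh15 had log2 ratios of -2.71, -2.94 and -2.28.

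Myelin genes that Schwann cells also use were lower by a smaller ratio and left a remainder. All 10 were below all 12 in both libraries and 5 passed the rule, with a median log2 ratio of -2.05. Mbp, the most abundant of the lower genes, read 246 and 261 CPM against 952 to 2885 (median 2022). Cnp, Mal and Sox10 had log2 ratios of -1.54, -1.79 and -0.92.

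The Schwann cell genes themselves did not separate the libraries. In 0 of 11 were both libraries below all 12 (16.9% over all genes) or both above (4.82%). A list this short can hold 0 at those shares. The median log2 ratio was -0.07 (0.04 with TMM scaling). Prx, which organises Schwann cell myelin, read 69.1 and 75.0 CPM, inside the range of 47.9 to 120 in the 12 (median 94.7), and Egr2, a transcriptional regulator of Schwann cell myelination, 5.96 and 5.52 against 5.70. Summed over the list, the 2 libraries read 756 and 701 CPM against 493 to 1089.

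Astrocyte genes were lower in 8 of 14 cases. Slc6a11, a GABA transporter, read 0.964 and 0.647 CPM against a median of 103, Gfap, the astrocyte intermediate filament, 19.6 and 19.2 against 182, and Aldoc, a glycolytic enzyme, 15.9 and 10.3 against 228. Aqp4, the water channel of astrocyte end-feet that muscle fibers also make, read 16.5 and 34.1 against 98.6. Ppp1r3c, a glycogen regulator that muscle and fat express, was not lower (153 and 217 against 153). Kcnj10, a potassium channel of astrocytes listed here with satellite glia of ganglia, read 9.90 and 9.26 against 156, while Fabp7, the lipid carrier in the same list, read 17.2 and 12.7 against 11.6. In the endothelium of the blood-brain barrier, 2 of 5 genes at 1 CPM were lower and all 5 were below all 12. Slco1c1, a thyroid hormone carrier, read 0.905 and 1.24 against a median of 8.07. Of 6 microglia genes 1 was lower, Sall1 (0.146 and 0.398 against 8.34), and P2ry12, the purine receptor that marks resting microglia, read 6.13 and 4.98 against 5.10 to 10.4. None of 5 genes of the meninges was lower (2.4% over all genes).

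Neurons were represented by spinal transmitter genes. Of 10 at 1 CPM, 8 were lower, and the median log2 ratio was -3.85. Gad1 and Gad2, the enzymes that make GABA, read 0.650 and 0.796 CPM (median of the 12 32.8), and 0.0292 and 0 (median 21.0). The acetylcholine genes of motor neurons were low as well: Slc18a3, the vesicle transporter, read 0 and 0.547 against 8.56, Slc5a7, the choline transporter, 0.409 and 0.448 against 16.1, and Chat, the synthetic enzyme, 0 and 0.0498 against 4.09. Slc17a6, the vesicular glutamate transporter that dorsal root ganglia express too, kept 16.5 and 10.9 against 45.7. Among receptors, 11 of 15 glycine and GABA-A subunits and 12 of 23 glutamate receptor subunits were lower. Glrb, the beta chain of the glycine receptor, read 13.5 and 8.46 against a median of 65.5, Grm5, a metabotropic glutamate receptor, 0.0876 and 0.149 against 12.7, and Grin2b, an NMDA receptor subunit, 0 and 0.0498 against 7.11. Grik1, a kainate receptor subunit of small sensory neurons, read 25.6 and 15.7 against 16.9 and was not lower.

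Sensory neuron genes were present in both sets. None of 13 was lower (2.4% over all genes), and the median log2 ratio was 0.37. Scn10a, a sodium channel of pain-sensing neurons, read 58.2 and 33.6 CPM, within the range of 18.9 to 80.7 in the 12. Calca, the gene of the peptide CGRP, read 80.4 and 47.4 against 26.9 to 80.4. Summed over the list, the libraries read 588 and 419 CPM against 273 to 630. Genes that all neurons share lay between, with 3 of 16 lower (Snap25, Map2 and Snhg11), against 2.4% over all genes. OVX-PBS replicate 1 was below all 12 in 16 of 16 (30.6% over all genes) and OVX-HA replicate 2 in 9 (25.4%). Nefl, a neurofilament chain, read 429 in OVX-HA replicate 2, inside the range of 325 to 818, and 194 in OVX-PBS replicate 1, below it. Tubb3, neuronal tubulin, read 188 and 103 against 114 to 296. In bulk RNA, fewer cells of a type and less RNA per cell cannot be told apart.

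**Figure D2:**
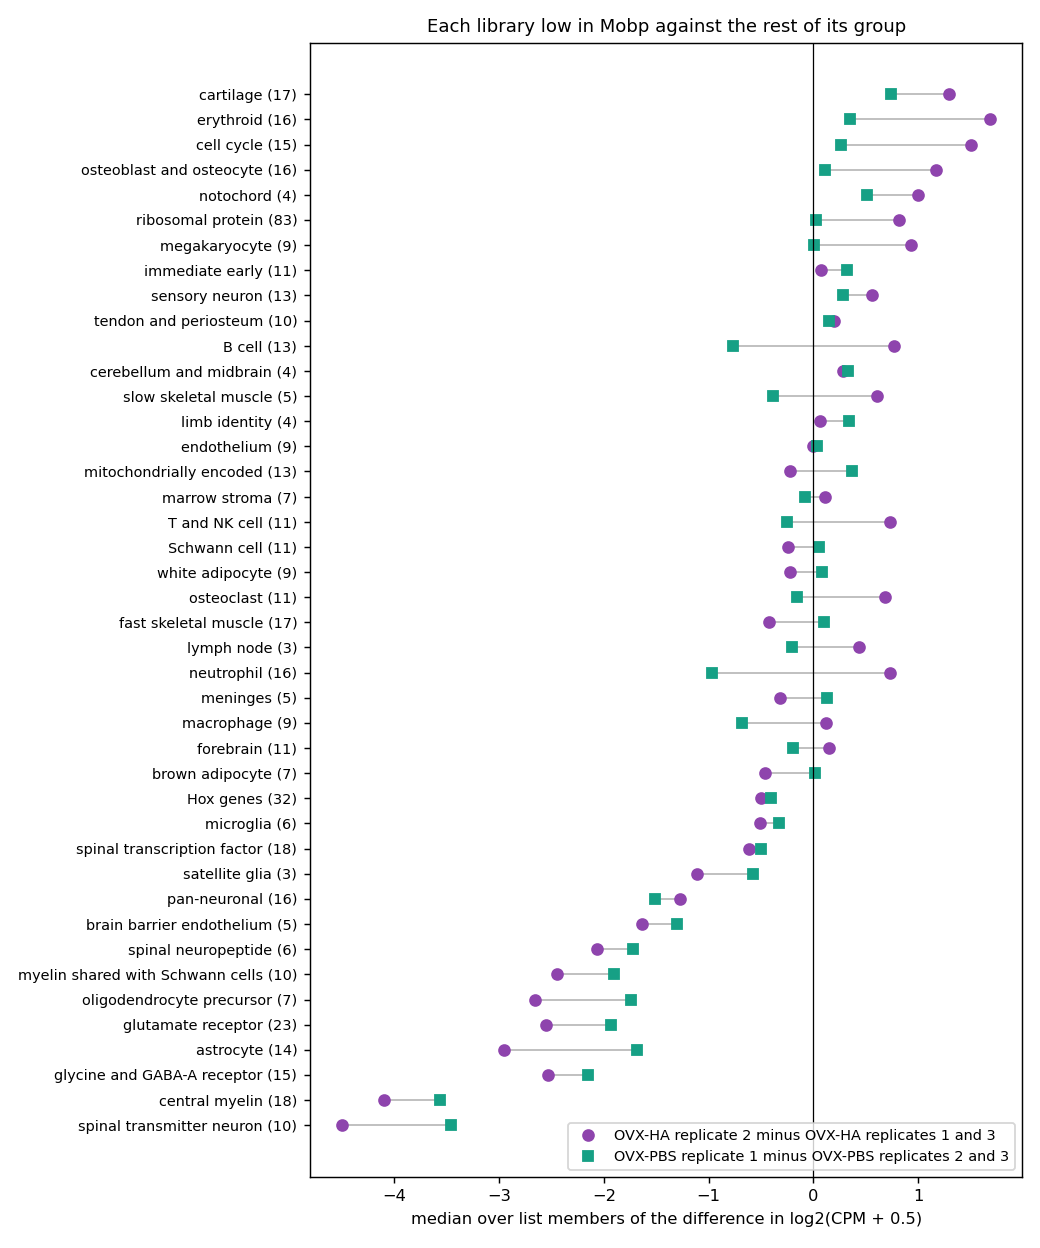
Median difference in log2(CPM + 0.5) between each library low in Mobp and the other 2 libraries of its treatment group, for each gene list with the number of members at 1 CPM in parentheses. Circles are OVX-HA replicate 2 and squares OVX-PBS replicate 1. The central myelin, astrocyte, spinal transmitter and receptor lists lie left of zero for both, the forebrain and cerebellum lists near zero, cartilage lies right of zero for both (1.29 and 0.74), and the neutrophil list lies on opposite sides (0.73 and -0.97).

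Hox genes and regional brain genes are listed by position along the body axis. Of 32 Hox genes at 1 CPM, 2 were lower (2.4% over all genes), Hoxb8 (7.10 and 5.47 CPM against 19.9 to 56.0) and Hoxd10 (2.51 and 0.597 against a median of 9.81). In 13 of the 32 both libraries were below all 12 (16.9% over all genes), among them Hoxb9 (5.93 and 4.78 against a median of 19.2), Hoxc10 (29.7 and 22.2 against 37.5), Hoxa11 (0.292 CPM and less than 1 count, against a median of 1.97 CPM) and Hoxd11, which had 0 counts in both (median 1.03). In 0 were both above. Hoxa7, Hoxd8, Hoxa9 and Hoxc6 were still at 19.3, 28.9, 22.1 and 18.6 CPM in OVX-HA replicate 2. Genes with paralog numbers 12 and 13 had medians under 1 CPM in the 12.

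**Figure D3:**
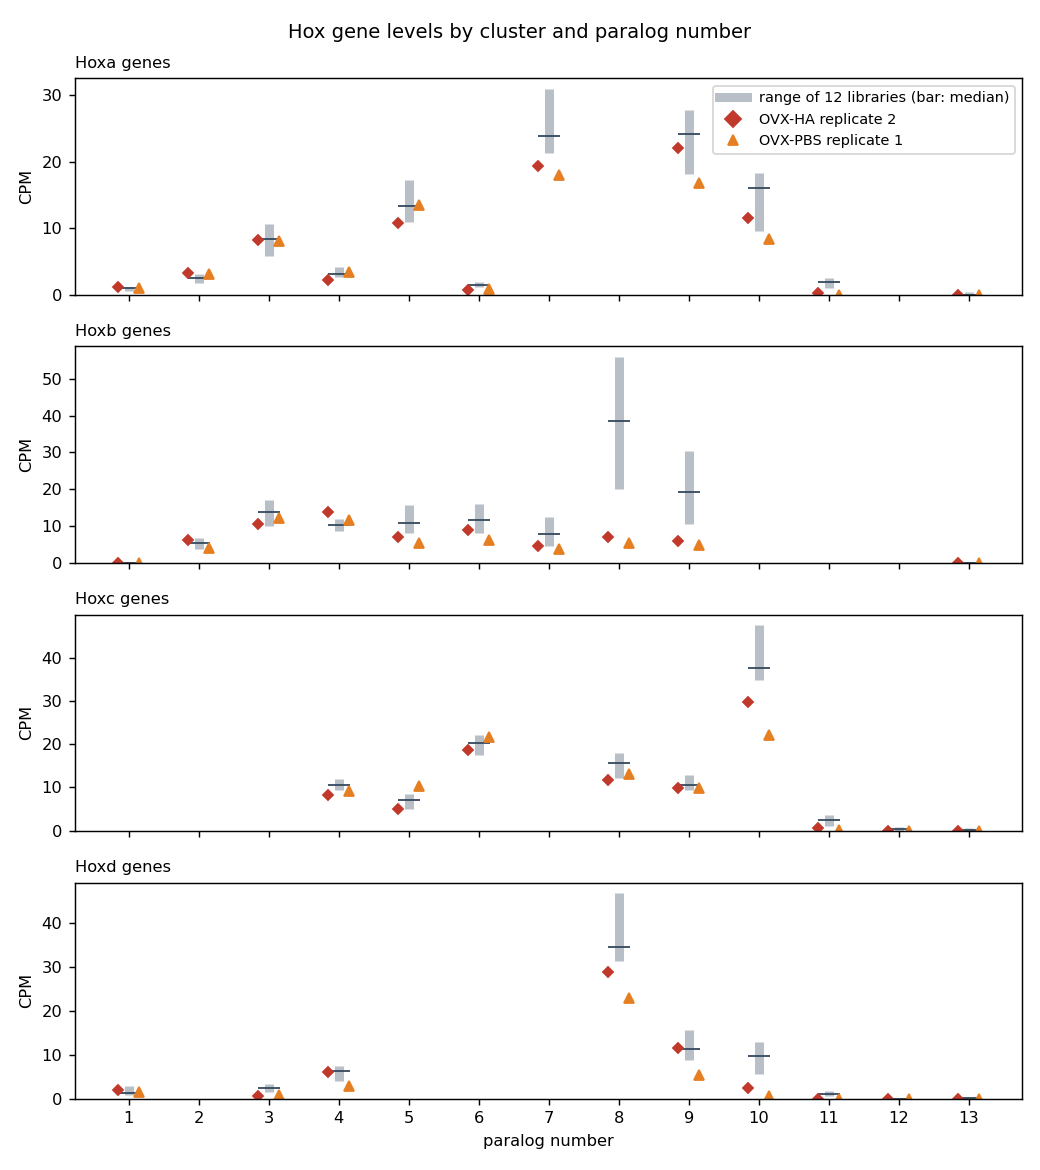
CPM of Hox genes by cluster and paralog number. Grey columns span the 12 libraries over 100 CPM Mobp with the median as a line, diamonds are OVX-HA replicate 2 and triangles OVX-PBS replicate 1. Both markers lie well below the columns at Hoxb8, Hoxb9 and Hoxd10, and within or near the columns at the lowest paralog numbers.

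Of 18 forebrain genes 11 reached 1 CPM in either set and 1 was lower, and of 12 genes of cerebellum and midbrain 4 and 0, against 2.4% over all genes. Emx1, Tbr1, Six3 and Dlx2, transcription factors of the forebrain, had medians under 0.05 CPM in the 12, and Otx2 of forebrain and midbrain was at most 0.0465. Gabra6, the GABA-A subunit of cerebellar granule cells, was at 0 in every library. In 4 of the 11 forebrain genes both libraries were below all 12 (16.9% over all genes). Lmo3 was the member that was lower by the rule (0.175 and 0.199 against 6.51). Neurod2, a factor of cortical neurons, had 0 counts in both against a median of 1.02. Camk2n1 read 26.4 and 28.9 against 98.8, and Ppp1r1b 4.73 and 3.23 against 11.9. In 1 of the 11, Dlx5, both libraries were above all 12 (4.82% over all genes). Transcription factors of spinal interneurons were lower in 2 of 18 (2.4% over all genes). In 9 of the 18 both libraries were below all 12 (16.9% over all genes). The 2 lower ones were Pax2, of inhibitory neurons (0.234 and 0.199 against 5.67), and Lmx1b, of dorsal excitatory and serotonin neurons (0.175 and 0.597 against 3.65). Tlx3 and Isl1, factors that sensory neurons also use, read 6.22 and 3.13 against 3.65, and 7.48 and 5.42 against 4.16. These 3 lists, and the 2 receptor lists, were assembled after values had been seen.

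The lower genes varied in how much was left. The higher of the 2 libraries was under 5% of the median of the 12 in 87 genes, between 5% and 10% in 85, between 10% and 20% in 156, and at 20% or more in 89. The first kind holds Mobp, Slc6a5, Slc32a1 and Mog. The last includes Snap25 (109 and 65.2 against a median of 498), a protein of synaptic vesicle fusion. It also includes Aqp4 (16.5 and 34.1 against 98.6) and Gjb6 (2.51 and 4.08 against 18.9) of the astrocyte list. Which cells the remaining counts came from was not tested. Without Mobp, the lower genes took up 0.222% (95% Wilson interval 0.221% to 0.224%) and 0.181% (0.180% to 0.183%) of counts in the 2 libraries, against 0.847% to 2.12% in the 12. These intervals cover counting error only. With Mobp the highest share was 2.17%, and leaving that share out of the total would move any other gene by 0.03 on the log2 scale. That share covers the lower genes only. The share of all RNA from nervous tissue was not estimated.

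Direction within each group follows largely from the rule. Against the other libraries of its own group, OVX-HA replicate 2 was lower by more than 1 on the log2 scale in all 417 genes and OVX-PBS replicate 1 in all 417. Removing OVX-PBS replicate 1 from the comparison left 396 lower genes, of which 353 were in the set of 417, and removing OVX-HA replicate 2 left 483, of which 393 were.

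The higher genes were fewer and smaller in ratio, and they included genes of cartilage and of red-cell precursors. Their median log2 ratio was 1.08, 22 of the 79 carry only a predicted or clone name, 7 are histone genes, and 49 reached 5 CPM in both libraries. In 73 of the 79 OVX-HA replicate 2 was above OVX-PBS replicate 1. The count rests on both libraries unevenly: it was 646 without OVX-PBS replicate 1 and 46 without OVX-HA replicate 2, with 76 and 18 of the 79 among them. They took up 0.548% (0.546% to 0.551%) and 0.325% (0.322% to 0.327%) of counts in the 2 libraries, against 0.153% to 0.283% in the 12.

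Cartilage genes were high in both libraries. Of 17 cartilage genes at 1 CPM, 6 were higher (0.482% over all genes) and 10 had both libraries above all 12 (4.82% over all genes). Col2a1 (chromosome 15, 97975602-98004695, - strand, mm10), the fibrillar collagen of cartilage, read 337 and 304 CPM against 83.5 to 280. The nearest of the 12 was OVX-PPA replicate 1, with 280, and the next was OVX-ZA replicate 1, with 196. Cnmd, a cartilage protein that holds off blood vessels, read 44.9 and 26.1 against 6.93 to 22.1. Acan, the large cartilage proteoglycan, read 98.2 and 70.1 (26.2 to 63.1), and Col9a2 and Col9a3, chains of the collagen on the surface of cartilage fibrils, had log2 ratios of 1.25 and 1.08. Sox9, the transcription factor of chondrocytes, was not above (13.1 and 9.80 against a median of 12.6), and Col10a1, of hypertrophic chondrocytes, read 36.1 and 30.6 against a highest value of 28.8. Panx3, a channel of cartilage and bone cells, and Rpgrip1, best known from photoreceptor cilia, were also among the 20 higher genes of largest ratio (1.25 and 1.55). Krt8, a keratin in the notochord list, was higher at low level (3.64 in OVX-PBS replicate 1, 2.30 in OVX-HA replicate 2, at most 2.06 elsewhere).

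Red-cell genes were shifted mainly in OVX-HA replicate 2. It lay above all 12 in 16 of 16 erythroid genes (24% over all genes), OVX-PBS replicate 1 in 10 of 16 (8.68%), and 3 passed the rule (0.482%). Within their groups the median differences were 1.69 and 0.35 on the log2 scale. Klf1, a master transcription factor of the lineage, read 129 and 71.7 CPM against 33.0 to 60.9. Gata1, a transcription factor that red-cell precursors need, read 94.0 and 50.2 against 24.3 to 46.6. Kel, a surface protein of the Kell blood group, read 268 and 135 against 63.5 to 126, and Epor, the erythropoietin receptor, 89.7 and 56.4 against 23.7 to 44.5. The globin gene Hba-a1 was above all 12 in OVX-HA replicate 2 and within their range in OVX-PBS replicate 1 (10819.5 and 5272 against 2923 to 5429). Icam4, a red-cell adhesion protein, and Tspo2, a cholesterol-binding protein of erythroblasts, had log2 ratios of 1.15 and 1.09.

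Cell cycle genes were high in the same library. OVX-HA replicate 2 was above all 12 in 14 of 15 (24% over all genes) and OVX-PBS replicate 1 in 6 (8.68%). Mki67 and Birc5 passed the rule (0.482% over all genes). Mki67, a marker of dividing cells, read 1063 and 628 CPM against 301 to 553. Other lists set the 2 libraries apart from each other. Osteoblast and osteocyte genes were above all 12 in 15 of 16 cases in OVX-HA replicate 2 and 3 of 16 cases in the other library, and ribosomal protein genes in 78 and 16 of 83. Mitochondrially encoded genes were above all 12 in 0 of 13 cases for OVX-HA replicate 2 but 9 of 13 for OVX-PBS replicate 1, and immediate early genes in 2 and 7 of 11. Neutrophil genes were above all 12 in 0 of 16 in either library. Over all genes, nervous ones included, OVX-HA replicate 2 was above all 12 in 24% and below all 12 in 25.4%. OVX-PBS replicate 1 was above all 12 in 8.68% and below all 12 in 30.6%. What part such differences in cell makeup or RNA have in the higher genes was not tested.

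**Figure D4:**
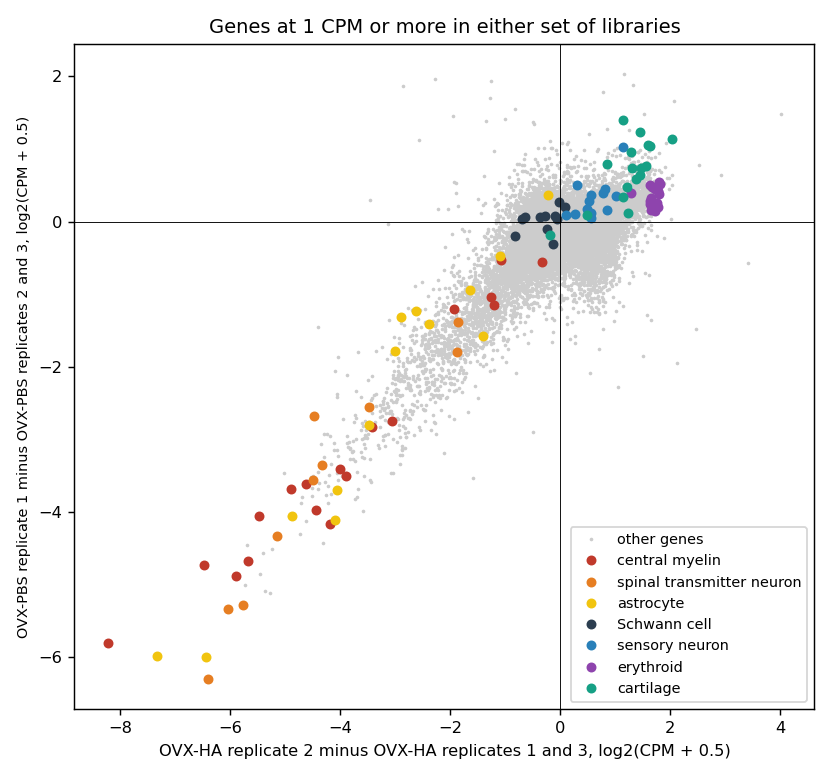
Each point is a gene at 1 CPM or more in either set. The x axis is OVX-HA replicate 2 minus OVX-HA replicates 1 and 3, and the y axis OVX-PBS replicate 1 minus OVX-PBS replicates 2 and 3, in log2(CPM + 0.5). Central myelin, astrocyte and spinal transmitter genes extend to the lower left in both, and cartilage lies in the upper right. Erythroid genes lie far right and only a little above zero on the y axis.

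The 12 libraries also differed among themselves in Mobp, which allowed a test within the 12 alone. Mobp is the gene of the rule, so this test is not independent of the rule. Each gene was fitted on log2 Mobp CPM with the treatment group in the model (edgeR quasi-likelihood, Benjamini-Hochberg adjustment at a false discovery rate of 0.05). Of 21602 genes, 1329 were higher with Mobp (6.15%) and 43 were lower (0.199%). Of the 416 lower genes that could be tested, 378 rose with Mobp (90.9%) and 0 fell, with a median slope of 0.72 log2 units per doubling of Mobp against 0.01 over all genes. They made up 28.4% of the 1329. The lower genes were chosen through the 2 libraries and through their range in the same 12. This share is therefore not independent of the choice. The spread in Mobp came mostly from sham replicate 3 (212 CPM) and OVX-ZA replicate 1 (156 CPM), the latter also the shallowest library. Without sham replicate 3 the test called 314 genes higher and 5 lower, with 192 of the 416 (46.2%) among the former. Without OVX-ZA replicate 1 it called 974 and 56, with 293 of the 416.

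Genes of central myelin, astrocytes and transmitter receptors were called as rising with Mobp in most cases, while those of the regional lists mostly were not. Mog had a slope of 1.00 ± 0.08 (SE; edgeR adjusted p = 0.000388), Gpr37, an oligodendrocyte receptor, 0.97 ± 0.07, Gfap 0.91 ± 0.08 and Slc6a5 0.83 ± 0.09 (adjusted p = 0.000607). Of 17 central myelin genes tested 15 passed, of 10 shared myelin genes 10, of 14 astrocyte genes 11, of 11 spinal transmitter genes 8 and of 24 glutamate receptor genes 19. Of 7 oligodendrocyte precursor genes 5 passed, of 17 glycine and GABA-A subunits 11, of 16 genes shared by all neurons 10 and of 6 brain barrier genes 3. In the remaining nervous lists fewer passed, against 6.15% that rose over all genes. These were 2 of 20 spinal transcription factors, 3 of 14 forebrain genes, 2 of 6 spinal neuropeptides and 1 of 6 microglia genes. In cerebellum and midbrain 0 of 8 passed, in ependyma and choroid plexus 0 of 5 and in meninges 0 of 5. Lists this short can hold 0 at that share. Genes of smallest p outside these groups were Sh3gl2 and Arhgef4, a synaptic endocytosis protein and a guanine exchange factor, and Vsnl1, a neuronal calcium sensor, with slopes of 0.82, 0.80 and 0.85. Among Hox genes 4 of 34 passed (6.15% rose over all genes), Hoxb8 (0.64 ± 0.10), Hoxb9 (0.60 ± 0.12), Hoxc11 (0.72 ± 0.18) and Hoxb6 (0.42 ± 0.10). Hoxd10 did not pass (0.43 ± 0.16, edgeR adjusted p = 0.177).

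Of the peripheral nerve lists, none of 11 Schwann cell genes passed, although their median slope was 0.44 (Prx 0.44 ± 0.20, edgeR adjusted p = 0.28). None of 13 sensory neuron genes passed, with a median slope of 0.13. Over all genes 6.15% rose with Mobp, and lists this short can hold 0 at that share. Of 3 satellite glia genes 1 passed, Kcnj10 (0.86 ± 0.07), which astrocytes also express. Precision differed as well, with a slope of 0.27 ± 0.30 for Scn10a. Whether peripheral and central genes differ in slope was not tested. None of the 78 higher genes that could be tested passed in either direction in edgeR (6.15% rose and 0.199% fell over all genes), and their median slope was -0.15. That median was 0.03 without sham replicate 3 and -0.29 without OVX-ZA replicate 1, and 3 of the 78 fell with Mobp in DESeq2, as did 3 in edgeR with Slc6a5 in place of Mobp. Col2a1 had a slope of -0.37 ± 0.22 (adjusted p = 0.45), Cnmd -0.55 ± 0.24 (0.259) and Klf1 -0.09 ± 0.11 (0.737). The 43 genes that fell with Mobp included Tpsb2, a mast cell protease (-0.75 ± 0.15), Adam33, a metalloprotease (-0.45 ± 0.09), and Fbln2, a matrix protein (-0.33 ± 0.07). All 3 lost the call without sham replicate 3. Lymph node genes, measured as markers of another tissue, had a median slope of -0.79 with 0 of 6 called, and their part in these calls was not tested.

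**Figure D5:**
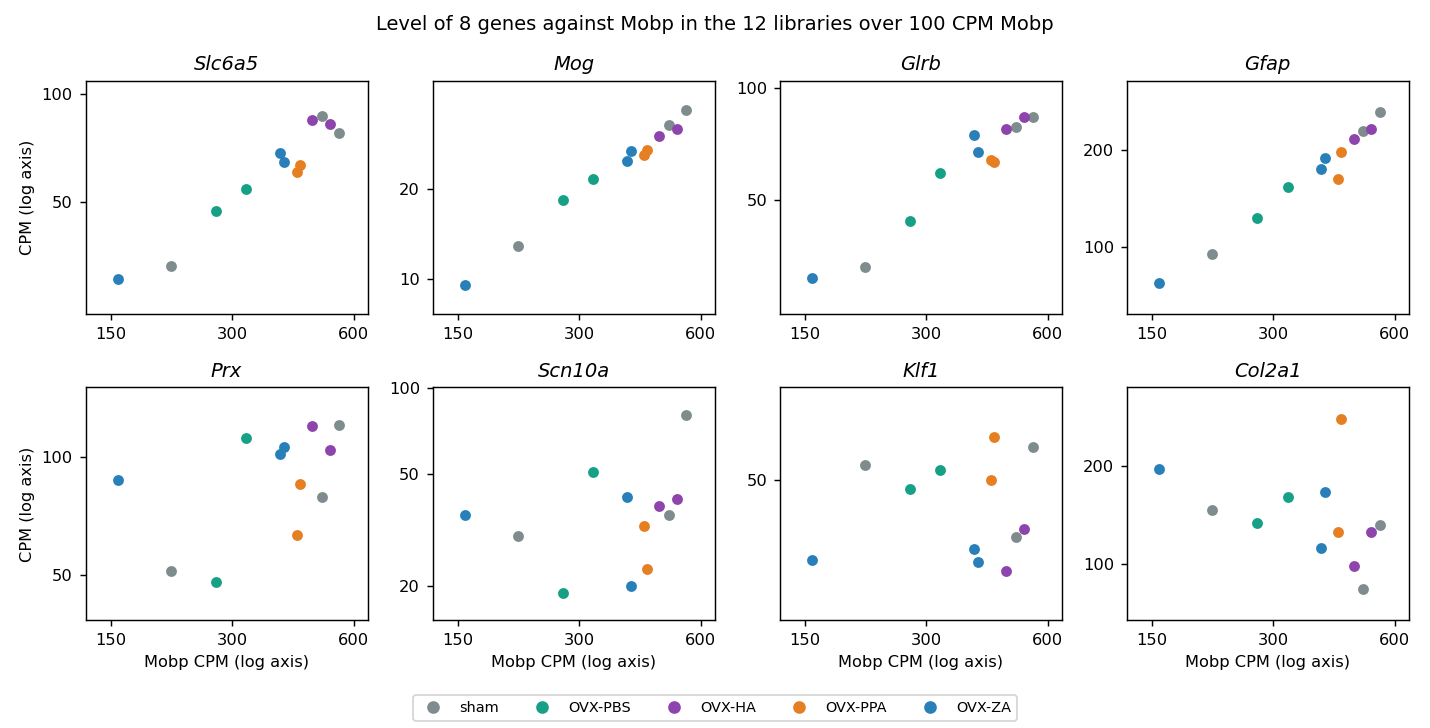
CPM of 8 genes against Mobp CPM in the 12 libraries over 100 CPM Mobp, both on log axes, colored by group. Slc6a5, Mog, Glrb and Gfap climb steadily from OVX-ZA replicate 1 and sham replicate 3 at the left, while Prx, Scn10a, Klf1 and Col2a1 scatter.

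The lower genes were compared between treatments within the 12 gene by gene, and nervous content as a whole was not tested. Mobp averaged 422 ± 183 CPM in sham (SD, n = 3), 300 ± 36.6 in OVX-PBS (n = 2), 499 ± 34.7 in OVX-HA (n = 2), 439 ± 5.18 in OVX-PPA (n = 2) and 318 ± 140 in OVX-ZA (n = 3). Of the lower genes, 0 of 417 passed in any of 4 comparisons among these groups (edgeR). Over all 21603 genes, 2 higher (0.00926%) and 4 lower (0.0185%) passed in OVX-ZA minus OVX-PBS and 0 in each other comparison. At such shares 0 of 417 does not set the lower genes apart. Those comparisons share the OVX-PBS libraries. The median log2 difference over the 417 was -0.29 for OVX-PBS minus sham, 0.64 for OVX-HA minus OVX-PBS, 0.30 for OVX-PPA minus OVX-PBS and 0.14 for OVX-ZA minus OVX-PBS. For OVX-HA minus OVX-PBS 70 of the 417 had an unadjusted p below 0.05, against 1351 of all 21603, and Mog differed by 0.62 ± 0.44 (edgeR adjusted p = 0.709). The median standard error over these genes was 0.35 in that comparison with the 12 libraries and 0.77 with all 14.

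The treatment comparisons were fitted with and without the 2 libraries. With the 12, edgeR called 0 of 21603 genes (0%) in OVX-PBS minus sham, OVX-HA minus OVX-PBS and OVX-PPA minus OVX-PBS, where 439, 1351 and 401 had an unadjusted p below 0.05. In OVX-ZA minus OVX-PBS it called 2 genes higher (0.00926%) and 4 lower (0.0185%). Bglap, which encodes osteocalcin, averaged 57.1 ± 5.29 CPM in OVX-ZA (n = 3) and 191 ± 21.5 in the 2 OVX-PBS libraries, a log2 difference of -1.71 ± 0.13 (edgeR adjusted p = 0.00148). Its neighbours Bglap2 and Bglap3, which share sequence with it, differed by -1.47 ± 0.17 and -1.45 ± 0.16, and Cfap161, a ciliary gene, by -2.64 ± 0.33. Ocstamp, a fusion protein of osteoclasts, was higher by 2.51 ± 0.34 and Cyp2s1, a cytochrome, by 2.34 ± 0.28. With all 14 libraries edgeR called 0 genes in this comparison, with 731 at an unadjusted p below 0.05. Putting back OVX-PBS replicate 1 alone gave 12 calls, among them the 6, and putting back OVX-HA replicate 2 alone, which belongs to neither group of the comparison, gave 0. The common biological coefficient of variation, the spread between libraries of a group that the fit shares across genes, was 17.4% with the 12 and 25.0% with the 14. Bglap passed when any 1 of the 12 was left out, while the number of calls ranged from 1 to 7. It was 1 without OVX-PBS replicate 2, OVX-PBS replicate 3, OVX-ZA replicate 1 or OVX-ZA replicate 3, and 2 or 3 without sham replicate 1, sham replicate 2 or either OVX-PPA library.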

How the data were processed

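A stranded kit was used on poly(A) RNA and single-end reads of 75 nt were made, per the labels' protocols. Tools named in the submitters' processing notes are STAR 2.7.8a, Bowtie2 2.2.5, Partek and CASAVA 1.8.1, with the build mm10. No source used here gives the annotation, the counting tool or the use of strand. The authors deposited estimated counts per gene symbol, not normalized, for 55291 symbols, of which 53292 (96.4%) were found in GENCODE for mm10. All columns were mapped to samples, and 0 were left over.

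CPM used column sums, a pseudocount of 0.5 and a minimum of 1 CPM. Counts were rounded for edgeR 4.0.16 (R 4.3.3): TMM scaling, filtering by group, a quasi-likelihood fit (21603 genes and 7 residual degrees of freedom for groups, 6 for the slope) and two-sided tests. DESeq2 1.42.0 was an alternative. The fits were tested on simulated data.

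Members and lists were chosen with earlier results of these data known. Genes named are the 12 most abundant and 12 lowest-ratio lower genes, 20 higher genes, up to 8 called genes per direction in each fit, up to 6 per list, and Hox and marker genes. Predicted genes are left out, and the text prints fewer. Symbols in the receptor and regional lists were added later.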

Additional observations from a re-analysis of the deposited data

Results flagged for a closer look

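Npy, a neuropeptide of sympathetic neurons and of some central neurons, differed in opposite directions in the 2 libraries low in Mobp. OVX-HA replicate 2 read 0.35 CPM, a log2 difference of -2.57 from the other OVX-HA libraries, and OVX-PBS replicate 1 read 9.70 CPM, 1.13 above the other OVX-PBS libraries. The 12 other libraries ran from 2.82 to 23.2 CPM. Each side rests on 1 library, and the difference between the groups was not tested.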

How the results depend on the processing

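The log2 ratios of the lower and higher genes that were named for their abundance or ratio kept their sign under the settings tried. Counts of calls were compared by size only. In OVX-ZA minus OVX-PBS their balance changed, from 2 higher and 4 lower to 21 and 14 with DESeq2. With no filter on low counts it was 34 higher and 29 lower. Ratios of the other named genes were not recomputed, and list medians near 0 did reverse. With TMM scaling the median log2 ratio went from -0.07 to 0.04 for Schwann cell genes, -0.09 to 0.02 for osteoclast, -0.02 to 0.07 for marrow stroma, -0.06 to 0.04 for T and NK cell, -0.10 to 0.02 for fast skeletal muscle and -0.09 to 0.03 for white adipocyte genes, and from -0.05 to 0.06 over all genes. The median slope of the higher genes went from -0.15 to 0.03 without sham replicate 3. The count of 417 lower genes was 200 with a pseudocount of 2, 1259 with a log2 limit of -1 and 122 with -3, and ranged from 396 to 483 when single libraries were left out. The count of 79 higher genes was 205 with TMM-scaled CPM, 143 with DESeq2 size factors, 31 with a pseudocount of 2, 49 with a minimum of 5 CPM, 523 and 7 with log2 limits of 0.5 and 1.5, and 157 when each library was compared within its treatment group. It ranged from 46 to 646 with single libraries left out. Calls for OVX-PBS minus sham within the 12 were 0 in edgeR and 44 with no filter on low counts, those for OVX-HA minus OVX-PBS 2 with no filter, and those for OVX-PPA minus OVX-PBS 1 with DESeq2 and 2 with no filter. These 3 stayed at 0 with single libraries left out. OVX-ZA minus OVX-PBS gave 35 calls with DESeq2, 63 with no filter, 0 with all 14 libraries, 12 with OVX-PBS replicate 1 and 0 with OVX-HA replicate 2 added to the 12 (both chosen after seeing the data), and 1 to 7 with single libraries left out. The slope on Mobp gave 2229 calls without the group in the model and 319 to 1456 with single libraries left out. The causes of these changes were not tested. Replicate numbers were treated as names. Same-numbered libraries correlated between -0.33 and 0.13 (median 0.04, 18 pairs), and other pairs between -0.29 and 0.33 (median -0.01, 39 pairs). These correlations use differences from group means, which mirror each other in groups of 2 libraries. They cannot settle whether the numbers mark pairs. With the replicate block OVX-ZA minus OVX-PBS gave 1 call, the slope 1094, and the other comparisons 0. Genes under the floor of 3 counts (0.0876 and 0.149 CPM in the 2 libraries) cannot be ranked by depth of loss.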
